A study of Mus musculus with 6 samples.

Results

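The arginine, nitric oxide and polyamine genes described here are Nos2, Slc7a2, Gch1, Ass1, Asl, Arg1, Arg2 and Odc1. These 8 genes serve L-arginine uptake, synthesis and use in macrophages, the cofactor of nitric oxide synthesis, or polyamine synthesis from ornithine. They were chosen by name, as all probes that the array annotation assigns to these symbols, which gave 12 of 25697 probes and 8 of 16593 named genes. The cells were macrophages of female 129/BL6 mice, differentiated from marrow over 5 days with conditioned medium of L929 cells, a fibroblast line that secretes the macrophage growth factor M-CSF. The 6 groups were IRAK2 knockout (KO) macrophages given R848, wild type (WT) macrophages given R848, KO macrophages given CpG B, WT macrophages given CpG B, untreated KO macrophages and untreated WT macrophages, and each group had 1 Illumina mouseRef-8 v2 bead array. Both agents were used at 1 µg/ml for 2 h. R848 is a small imidazoquinoline that activates the endosomal receptor TLR7, CpG B is a synthetic DNA oligonucleotide that activates TLR9, and IRAK2 is a kinase of the MyD88 pathway that both receptors use. Neither the number of mice behind each array nor the design of the KO allele is stated in the sources.

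L-Arginine enters macrophages through cationic amino acid transporters and is then split between competing enzymes. Inducible nitric oxide synthase turns it into nitric oxide and citrulline, and citrulline can be rebuilt into arginine, whereas arginases turn it into urea and ornithine, the starting point of polyamines and proline. In mouse macrophages the nitric oxide branch is classically induced by microbial products and the arginase branch by IL-4 and related signals.

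The promoter windows of 3 of the 8 genes, Gch1, Ass1 and Odc1, were available from RefSeq (build GRCm38.p6), and no entry was found for Nos2, Slc7a2, Asl, Arg1 or Arg2. They are shown because Gch1 and Ass1 were called higher with R848 and because Ass1 and Odc1 were called higher in KO macrophages. The motif set in capitals was chosen separately for each gene. Each window holds 250 bases before and 50 bases from the annotated start on. The Gch1 window is chr14:47189364-47189663 on the minus strand, with the match to the NF-κB consensus in capitals. The Ass1 window is chr2:31470020-31470319 on the plus strand, with the E-box in capitals. The Odc1 window is chr12:17544623-17544922 on the plus strand, with the GC boxes in capitals.
Gch1: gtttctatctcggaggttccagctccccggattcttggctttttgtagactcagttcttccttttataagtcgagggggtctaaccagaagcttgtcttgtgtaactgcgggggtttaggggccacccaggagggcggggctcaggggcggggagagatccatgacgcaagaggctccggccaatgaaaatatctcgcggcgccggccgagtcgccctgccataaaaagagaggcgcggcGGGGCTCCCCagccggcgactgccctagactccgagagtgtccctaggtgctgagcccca
Ass1: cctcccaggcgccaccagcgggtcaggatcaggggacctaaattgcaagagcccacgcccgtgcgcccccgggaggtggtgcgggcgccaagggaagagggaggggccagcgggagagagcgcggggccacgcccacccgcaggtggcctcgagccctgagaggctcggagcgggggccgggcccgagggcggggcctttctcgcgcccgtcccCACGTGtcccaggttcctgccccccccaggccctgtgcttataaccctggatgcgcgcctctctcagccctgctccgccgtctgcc
Odc1: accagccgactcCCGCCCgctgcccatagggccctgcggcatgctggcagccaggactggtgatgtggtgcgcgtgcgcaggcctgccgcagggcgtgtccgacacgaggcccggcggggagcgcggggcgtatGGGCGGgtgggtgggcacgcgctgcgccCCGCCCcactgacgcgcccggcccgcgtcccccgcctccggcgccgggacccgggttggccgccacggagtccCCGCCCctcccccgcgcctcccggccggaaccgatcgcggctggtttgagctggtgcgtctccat

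Both strands were searched for 8 motifs: the E-box CACGTG, the CRE TGACGTCA, the AP-1 site TGANTCA, the C/EBP half-site pair TTGCNNAA, the GC box GGGCGG, the CCAAT box, the TATA box TATAAA and the NF-κB consensus. The Gch1 window held 1 match to the NF-κB consensus, which begins 10 bases before the start and is present in 4.51% of 32851 mouse promoter windows of the same length. It also held 2 GC boxes (in 35.7% of all windows), 1 CCAAT box (in 37.4%) and 1 match to the TATA box letters (in 13.6%). That last match begins 188 bases before the start. The Ass1 window held 1 E-box, beginning 36 bases before the start and present in 7.15% of all windows, and 1 GC box. It held no match to the NF-κB consensus. The Odc1 window held 4 GC boxes, a motif present in 35.7% of all windows, and none of the other motifs. No 2 of these matches overlapped, and a match is a description of letters only.

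Of the 12 probes, 10 were detected (detection p under 0.01, that is, brighter than nearly all negative-control beads) on at least 1 array and 7 on all 6 arrays, so all 8 genes entered the tests. The 2 undetected probes both belong to Slc7a2, whose values below come from its remaining probe. Intensities are background-subtracted bead signals and can be negative. A probe's brightness depends on its sequence, so each gene is compared only with itself. The intensities given for each gene below are not normalized unless a scale is named, and normalization can reverse the order of arrays. Differences and tests used log2 intensities after normexp background correction with an offset of 16 and quantile normalization, a scale that compresses differences of dim genes. On the whole array set, 34.9% to 37.8% of probes were detected per array, and the 6 macrophage markers on the array were each detected on at least 2 arrays. Both Irak2 probes were detected on every array, at 555.6 to 834.8 on the stimulated KO arrays, against 2116.6 to 3695 on the stimulated WT arrays. Whether these probes lie inside the deleted part of Irak2 is not stated, so they do not check the genotype labels.

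**Figure D1:**
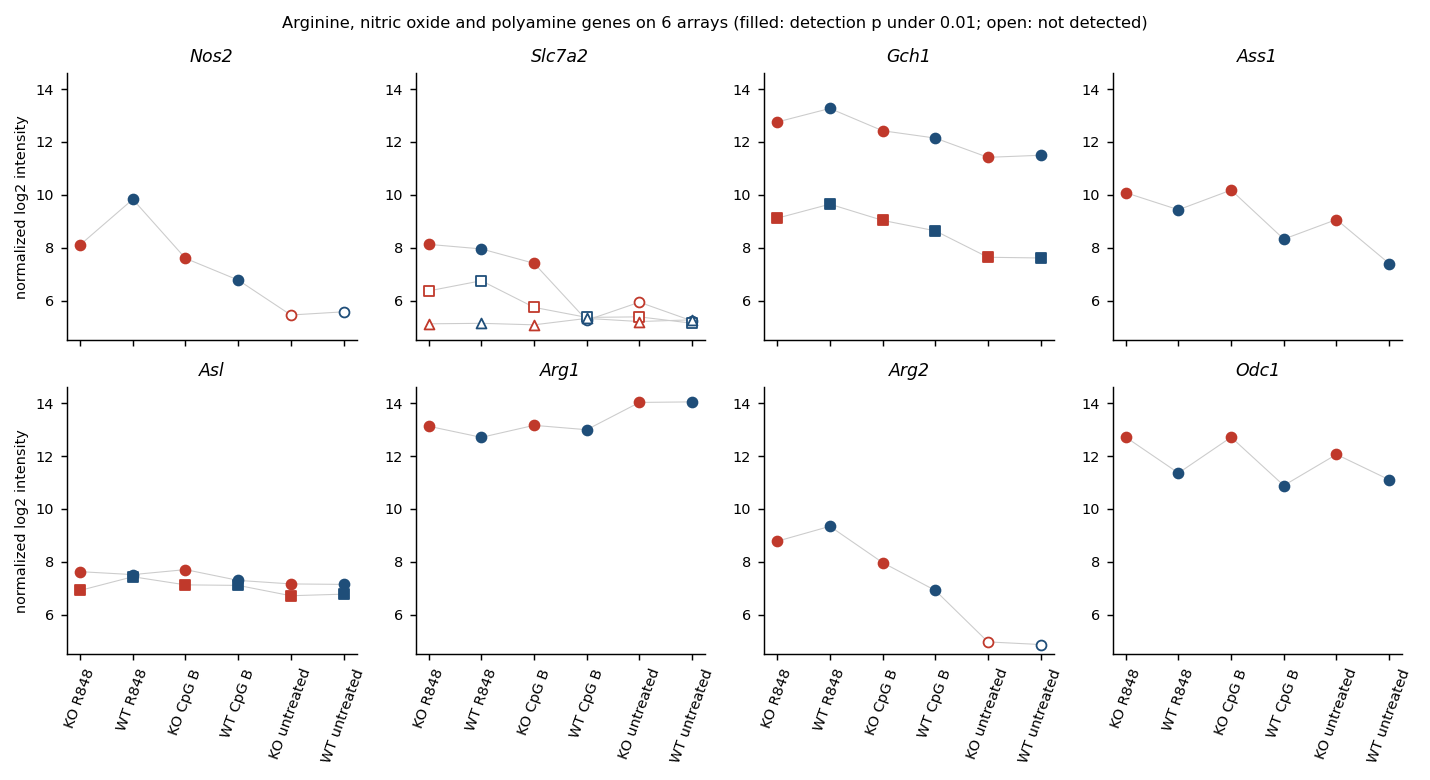
Normalized log2 intensity (y axis) of every probe of the 8 genes on the 6 arrays (x axis), KO in red and WT in blue, with 1 symbol shape per probe, filled where the probe was detected and open where it was not. Nos2 and Arg2 are detected on the 4 stimulated arrays and not on the untreated ones, Arg1 is highest on the 2 untreated arrays, and Odc1 is higher in KO than in WT in all 3 conditions.

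The main test was an additive limma fit of the 6 arrays, with a genotype effect and an effect of each agent, over 7149 genes detected on at least 1 array. With 1 array per group, its error comes from how far the arrays depart from additivity (2 residual degrees of freedom), so a gene whose response differs between genotypes has a wider interval. p-values measure the spread between these arrays, with no biological replicate behind them. The R848 and CpG B effects share the untreated arrays. R848 changed 6 of the 8 genes at an adjusted p under 0.05, 5 higher and 1 lower, where 29.4% of all tested genes were called (12.1% higher and 17.3% lower). CpG B changed 2 of the 8, 1 higher and 1 lower, where 8.69% of all tested genes were called (4.7% higher and 3.99% lower). The median R848 effect was -0.08 on the log2 scale over all tested genes. All 6 R848 calls and both CpG B calls among the members needed both untreated arrays: without the KO or the WT untreated array no member was called, and over all genes 27 or 2 were called for R848 and 1 or 4 for CpG B. Without the KO CpG B array no member was called for CpG B either, and without the KO or the WT R848 array 5 were.

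Nos2, which encodes inducible nitric oxide synthase, rose with R848. Its intensity was 236.6 on the KO R848 array and 799 on the WT R848 array, 152.5 with CpG B in KO and 112.9 with CpG B in WT, and 22.4 and 26.5 on the untreated KO and WT arrays, where it was not detected. The WT R848 array stood far above the other 5, and the KO R848 array was the next highest. Against the lowest signal counted as detected, Nos2 was at least 2.74-fold higher with R848 than untreated in KO cells, and at least 9.13-fold higher in WT cells. With CpG B these bounds were at least 1.92-fold in KO cells and at least 1.1-fold in WT cells. The additive R848 effect was 3.46 ± 0.55 on the log2 scale (SE, limma adjusted p = 0.0101). The CpG B effect was 1.67 ± 0.55 (SE, limma adjusted p = 0.125) and was not called. Since Nos2 was not detected untreated, the sizes of both effects depend on the offset and are not measured.

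Slc7a2, the inducible cationic amino acid transporter CAT2 that supplies arginine to the cell, also rose with R848. It gave 239.7 with R848 in KO and 195.5 with R848 in WT, 133.2 with CpG B in KO and 10.6 with CpG B in WT, and 49.7 and 7.6 on the untreated KO and WT arrays. It was detected on both R848 arrays and on the KO CpG B array, and not on the WT CpG B array or either untreated array. R848 over untreated was at least 2.77-fold in KO cells and at least 2.49-fold in WT cells, and CpG B over untreated was at least 1.69-fold in KO cells. After CpG B, KO was at least 1.96-fold above WT. The additive R848 effect was 2.46 ± 0.45 on the log2 scale (SE, limma adjusted p = 0.0143), and the CpG B effect was 0.75 ± 0.45 (SE, limma adjusted p = 0.341). The sizes of both effects depend on the offset and are not measured, as Slc7a2 was not detected untreated.

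Gch1 encodes GTP cyclohydrolase 1, which makes the first step towards tetrahydrobiopterin, the cofactor of nitric oxide synthases. Its brighter probe gave 6348.6 with R848 in KO and 10364.1 with R848 in WT, 4695 with CpG B in KO and 5479.7 with CpG B in WT, and 2769.2 and 2932.1 on the untreated KO and WT arrays. After normalization the CpG B values were 5497.49 in KO and 4535.63 in WT, the reverse order of the genotypes. All 4 stimulated arrays lay above both untreated arrays, in the order R848 over CpG B in each genotype. The additive R848 effect was 1.55 ± 0.20 on the log2 scale (SE, limma adjusted p = 0.00613) and the CpG B effect 0.83 ± 0.20 (SE, limma adjusted p = 0.0651). The dimmer probe ran from 428.5 to 695 on the stimulated arrays, against 208.7 and 188.3 on the untreated KO and WT arrays, so both probes gave the same direction. In the fit on every named probe the dimmer probe was called higher with CpG B (1.21, limma adjusted p = 0.0364) and the brighter one was not (0.83, limma adjusted p = 0.0664).

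Ass1 and Asl encode argininosuccinate synthase and argininosuccinate lyase, which rebuild arginine from citrulline in sequence. Ass1 gave 969.4 with R848 in KO and 593.9 with R848 in WT, 976 with CpG B in KO and 374.1 with CpG B in WT, and 574.6 and 159.9 on the untreated KO and WT arrays. The untreated KO and WT R848 arrays were close in these intensities, but after normalization they gave 535.875 and 692.292. The additive R848 effect was 1.52 ± 0.30 on the log2 scale (SE, limma adjusted p = 0.0169) and the CpG B effect 1.02 ± 0.30 (SE, limma adjusted p = 0.0962). Asl varied little. Its brighter probe lay between 138.6 and 172.9 on the stimulated arrays, against 145.6 and 130.7 on the untreated KO and WT arrays, and its second probe lay between 98 and 150.2 stimulated, against 101.3 and 97.9. The R848 effect on Asl was 0.42 on the log2 scale, with a 95% interval of 0.06 to 0.77 (limma adjusted p = 0.0801).

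Arg1 and Arg2 encode the cytosolic and the mitochondrial arginase, and their signals moved in opposite directions. Arg1 gave 7954.1 with R848 in KO and 6848.3 with R848 in WT, 7788.5 with CpG B in KO and 9696.6 with CpG B in WT, and 16576.9 and 17096 on the untreated KO and WT arrays. Arg1 thus stayed bright on every array and was brightest on the 2 untreated ones. After normalization the Arg1 values with CpG B were 9158.93 in KO and 8168.18 in WT, the reverse order of the genotypes. Its additive effect was -1.12 ± 0.15 with R848 and -0.96 ± 0.15 with CpG B on the log2 scale (SE, limma adjusted p = 0.00634 and 0.0212). Both calls depended on which untreated array was used, as described below.

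Arg2 gave 385.9 with R848 in KO and 553.6 with R848 in WT, 202.7 with CpG B in KO and 127.6 with CpG B in WT, and -11.8 and -18.9 on the untreated KO and WT arrays, where it was not detected. R848 exceeded CpG B in both genotypes. R848 over untreated was at least 4.35-fold in KO cells and at least 6.5-fold in WT cells, and CpG B over untreated was at least 2.48-fold in KO cells and at least 1.21-fold in WT cells. Arg2 was the one member called higher with both agents. Its additive effects were 4.14 ± 0.36 for R848 and 2.52 ± 0.36 for CpG B on the log2 scale (SE, limma adjusted p = 0.00249 and 0.0175). Since Arg2 was not detected untreated, the sizes of these effects depend on the offset and are not measured. With an offset of 50 the CpG B effect was 1.71.

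Odc1 encodes ornithine decarboxylase, the first enzyme of polyamine synthesis from ornithine. It gave 6192 with R848 in KO and 2543.7 with R848 in WT, 5777 with CpG B in KO and 2293.3 with CpG B in WT, and 4236.6 and 2263.2 on the untreated KO and WT arrays. In each condition the KO array lay above the WT array. After normalization the WT values were 2622.53 with R848, 1891.14 with CpG B and 2200.51 untreated. The R848 effect was 0.45 on the log2 scale, with a 95% interval of -0.09 to 0.99 (limma adjusted p = 0.17), and the CpG B effect was 0.22, with an interval of -0.32 to 0.75 (limma adjusted p = 0.571).

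**Figure D2:**
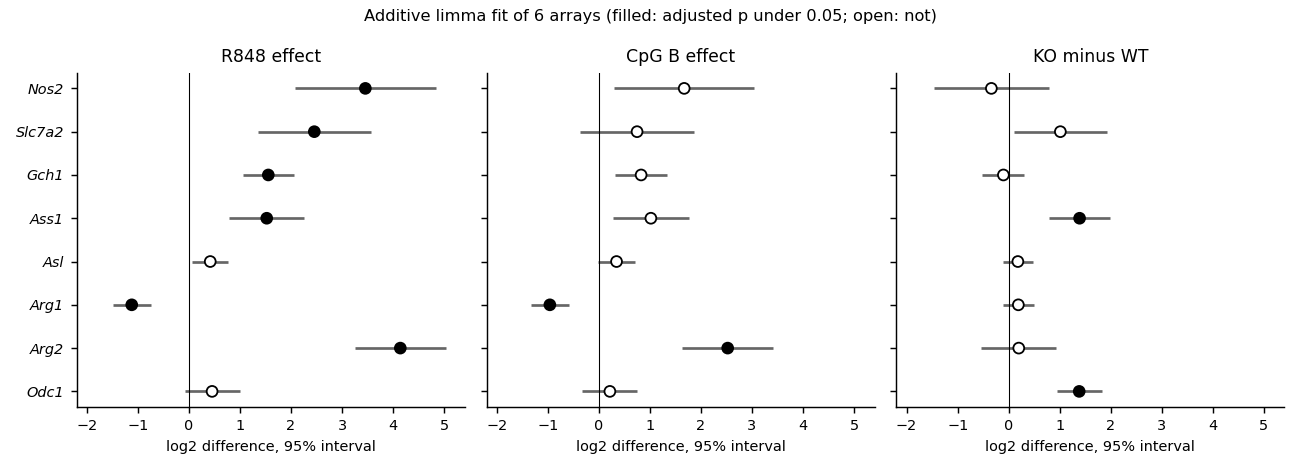
Additive limma effects of R848, CpG B and genotype (KO minus WT) on each of the 8 genes, in log2 units, with horizontal lines for 95% intervals, filled where the adjusted p was under 0.05. Nos2, Slc7a2, Gch1, Ass1 and Arg2 were called higher and Arg1 lower with R848, Arg2 higher and Arg1 lower with CpG B, and Ass1 and Odc1 higher in KO. The agent effects of Nos2, Slc7a2 and Arg2, not detected untreated, depend in size on the offset.

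Across genotypes, Ass1 and Odc1 were called higher in KO macrophages over the 3 conditions, where 3.4% of all tested genes were called (1.76% higher). The additive difference was 1.39 ± 0.24 for Ass1 and 1.38 ± 0.18 for Odc1 on the log2 scale (SE, limma adjusted p = 0.0476 and 0.02). The KO minus WT difference of Odc1 was 1.36 after R848, 1.83 after CpG B and 0.96 untreated, and that of Ass1 was 0.64, 1.86 and 1.66, each from 1 pair of arrays. The additive difference of Slc7a2 was 1.01 ± 0.36 (SE, limma adjusted p = 0.227). For the other 5 genes it lay between -0.34 and 0.20, with adjusted p-values of at least 0.446. Without either CpG B array or either untreated array, neither gene was called, at adjusted p = 0.148 and 0.325 for Ass1 and 0.05355 and 0.093 for Odc1.

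Markers of antigen presentation and some of the neutrophil and precursor markers differed between the genotypes on the same arrays. Among 10 dendritic cell markers, the MHC class II genes H2-Ab1, H2-Aa and H2-Eb1 and Cd74, the class II invariant chain, were each called higher in KO. The summed normalized level of the 5 detected markers was 14608.5 to 19746.1 on KO arrays, against 4427.88 to 7423.77 on WT arrays. Flt3, Zbtb46, Clec9a, Itgax and Ccr7 were not detected on any array. Of the 9 detected neutrophil and precursor markers, S100a9, Camp, Ltf and Ngp were called lower and Mmp8 higher in KO. S100a8 (-0.54), Mpo (0.59), Prtn3 (0.45) and Elane (0.01) were not called (limma adjusted p = 0.0796, 0.0605, 0.119 and 0.964). Summed levels were 10554.8 to 13634.6 on KO arrays, against 16228.1 to 19141.8 on WT arrays. These sums come mostly from S100a8 and S100a9, the brightest of the list. The part of both lists in the Ass1 and Odc1 differences was not tested. No erythroid, T cell, fibroblast or mast cell marker was detected on any array, and Cd79b for B cells and Pecam1 for endothelium were the detected markers of their lists. In these whole cultures, a change in the number of cells that express a gene and a change in RNA per cell cannot be told apart.

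Single pairs of arrays gave the responses of each genotype. They were counted at 2-fold on the normalized values as they stand, without a test, and then with an array on which a gene was not detected set to the lowest detected signal, a count added after the data were seen. With R848, Nos2, Slc7a2, Gch1, Ass1 and Arg2 were higher in KO cells, 5 of the 8 genes, where 5.77% of detected genes were higher by as much. In WT cells these 5 were higher and Arg1 was lower with R848, where 7.7% of genes were higher and 7.88% lower. Both R848 counts of members were the same at the lowest detected signal.

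With CpG B, the same 5 genes were higher in KO cells on the values as they stand (4.64% of genes higher), but Gch1, Ass1 and Arg2 alone passed 2-fold at the lowest detected signal (3.92% of genes). In WT cells Nos2 and Arg2 were higher and Arg1 was lower with CpG B (3.64% of genes higher and 1.6% lower), and at the lowest detected signal 0 members were shown to be 2-fold higher (2.96% of genes). After CpG B, Slc7a2, Ass1, Arg2 and Odc1 were higher in KO than in WT on the values as they stand (1.65% of genes), and Ass1, Arg2 and Odc1 at the lowest detected signal (1.44% of genes). After R848, Odc1 was higher and Nos2 lower in KO, where 2.2% of genes were higher and 2.48% lower. Untreated, Ass1 was higher in KO, where 1.2% of genes were.

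On these single pairs, Gch1 and Ass1, detected on every array, had a smaller R848 and larger CpG B response in KO than in WT. Asl, Odc1 and Arg1 were also detected on every array. With R848, Asl rose by 0.46 in KO and 0.37 in WT, and Odc1 by 0.65 and 0.25, so both rose more in KO. The second Asl probe gave 0.20 in KO and 0.66 in WT. Arg1 fell less in KO, at -0.90 against -1.34. The R848 responses in KO and WT were 1.34 and 1.77 for Gch1 and 1.01 and 2.03 for Ass1, as log2 differences. With the second untreated arrays described below, on the submitters' scale, they were 1.42 and 1.86 for Gch1 and 1.66 and 1.87 for Ass1. On that scale the deposited arrays gave 1.33 and 1.77 for Gch1 and 1.02 and 2.12 for Ass1, so the Ass1 gap narrowed. With the deposited arrays, the R848 responses were 2.65 and 4.26 for Nos2 and 3.81 and 4.47 for Arg2. Neither Nos2 nor Arg2 was detected on those untreated arrays. The sizes for Nos2 and Arg2 are therefore not measured. For Slc7a2 no order can be given, since its bounds were at least 2.77-fold in KO and at least 2.49-fold in WT.

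The CpG B responses in KO and WT were 1.01 and 0.65 for Gch1 and 1.12 and 0.92 for Ass1, and, against undetected untreated arrays, 2.14 and 1.20 for Nos2 and 3.0 and 2.05 for Arg2. The larger CpG B value in KO did not hold for Nos2 and Ass1 under every setting. With the second untreated arrays described below, Nos2 gave 2.44 in KO and 2.58 in WT. With median scaling over all probes, Ass1 gave 0.96 in KO and 1.02 in WT. On that scaling Gch1 gave 0.97 in KO and 0.76 in WT. Its KO minus WT difference after CpG B was then 0.01, against 0.28 in the main setting. The planned test of the KO minus WT difference in the mean response to the 2 agents, into which opposite differences enter with opposite signs, called no gene at all (136 at an unadjusted p under 0.05, limma). All 8 members had an adjusted p of 0.9999 there.

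**Figure D3:**
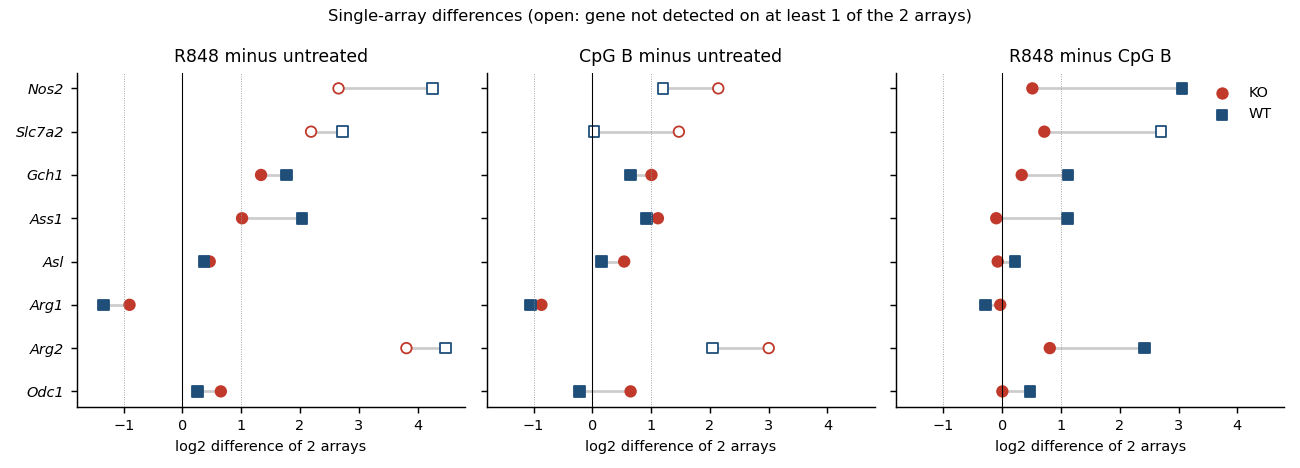
Log2 difference between 2 arrays (x axis) for each of the 8 genes, KO as red circles and WT as blue squares, for R848 minus untreated, CpG B minus untreated and R848 minus CpG B, with dotted lines at 2-fold and open symbols where the gene was not detected on at least 1 of the 2 arrays, so that the size is not measured. For Gch1 and Ass1, with filled symbols throughout, the KO point lies left of the WT point with R848 and right of it with CpG B. For Asl, Arg1 and Odc1, also filled throughout, the KO point lies right of the WT point with both agents. In the last panel the 5 genes with WT points beyond 2-fold (Nos2, Slc7a2, Gch1, Ass1 and Arg2) have KO points inside the 2-fold lines.

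R848 was also set against CpG B within each genotype, a comparison added after the members' values were seen. R848 minus CpG B was 0.51 in KO and 3.05 in WT for Nos2, 0.33 and 1.12 for Gch1, -0.10 and 1.11 for Ass1, and 0.81 and 2.42 for Arg2, as log2 differences. For Slc7a2 it was 0.72 in KO and at least 1.51 in WT, where the gene was not detected with CpG B. In KO, 0 of the 8 genes passed 2-fold, where 15 of 6749 genes did (0.222%), and in WT 5 of 8 did, all higher with R848, where 435 of 6899 genes passed (6.31%, with 3.65% higher). Few genes of any kind thus passed 2-fold between the 2 KO arrays, although R848 still exceeded CpG B there for Nos2, Slc7a2, Gch1 and Arg2. Averaged over genotypes, R848 minus CpG B called no gene in the additive fit (941 at an unadjusted p under 0.05, limma, and 113, or 1.58%, by the 8-array fit described next), and the members' adjusted p-values were at least 0.364. Without the KO R848 array, the additive fit called 522 genes, among them 5 members, on 1 residual degree of freedom.

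A second untreated array per genotype gave the only measure of spread within a group. In the submitters' normalized table, the untreated columns did not equal the deposited untreated arrays but the mean of each with 1 further array, whose values were recovered from that mean. Where that further array came from is not stated. Between the paired untreated arrays, 0.783% of the 7149 genes differed by 2-fold or more in KO and 0.685% in WT. A limma fit of these 8 arrays takes its error from the untreated pairs alone, and on it values were floored at 16. The untreated values of Arg2 in both genotypes, of Slc7a2 in WT and of Nos2 on the second WT array lay at that floor. For Arg2 in both genotypes and Slc7a2 in WT this holds for both arrays of the pair, so their spread there is not measured and their p-values from this fit are too small.

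With these 8 arrays, R848 raised Nos2, Slc7a2, Gch1 and Arg2 in KO cells (14.1% of all genes called) and the same 4 with Ass1 in WT cells (26.5% called). CpG B raised Nos2, Slc7a2, Gch1 and Arg2 in KO cells (8.43% called) and Arg2 in WT cells (4% called). The CpG B response of Gch1 was 1.03 ± 0.13 in KO and 0.68 ± 0.13 in WT on the log2 scale (SE, limma adjusted p = 0.0181 and 0.0768). The difference between genotypes in the CpG B response called no gene (332 at an unadjusted p under 0.05, limma), and that in the R848 response called 4 genes (0.056%), none of them a member. The difference between KO and WT in R848 minus CpG B, a comparison chosen after the members' values were seen, was also tested directly. It called 19 genes (0.266%), among them Slc7a2 at -3.13 on the log2 scale (limma adjusted p = 0.0402). The untreated WT values and the WT CpG B value of Slc7a2 lay at the floor. Its size is therefore not measured, its p-value is too small, and no conclusion is drawn from this call. The difference was -1.73 for Arg2 (limma adjusted p = 0.0732), -2.69 for Nos2 (limma adjusted p = 0.325), -0.79 for Gch1 (limma adjusted p = 0.325) and -1.25 for Ass1 (limma adjusted p = 0.525), and none of these was called.

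The Arg1 result depended on the untreated array. On the submitters' scale the untreated Arg1 values were 16148.9 and 10806.7 in KO and 16410.1 and 10244.7 in WT, with the deposited array first. All 4 still lay above every stimulated array. With the second arrays in place of the deposited ones, the R848 difference was -0.32 in KO and -0.67 in WT, and the CpG B difference was -0.28 in KO and -0.37 in WT. The additive Arg1 effect was then -0.49 with R848 (limma adjusted p = 0.0533) and -0.33 with CpG B (limma adjusted p = 0.203), and neither was called.

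Odc1 and Ass1 also varied between untreated arrays. Odc1 was 4120 and 2860.4 on the untreated KO arrays, against 2152.8 and 1835.8 on the untreated WT arrays, and Ass1 was 527 and 336.6, against 157.25 and 187.95. Both KO arrays exceeded both WT arrays for each gene. With the second untreated arrays the additive KO minus WT difference was 1.26 for Odc1 and 1.12 for Ass1 (limma adjusted p = 0.0856 and 0.135). With all 8 arrays it was 1.31 ± 0.16 and 1.27 ± 0.19 (SE, limma adjusted p = 0.0239 and 0.0367), where 5.55% of genes, and Slc7a2 as a further member, were called. Condition by condition, the 8-array fit called no member between KO and WT after R848 (1.97% of genes called), and Slc7a2 higher in KO after CpG B (0.811% called) and untreated (1.43% called), where its WT values lay at the floor. For Odc1 these adjusted p-values were 0.125 after R848, 0.131 after CpG B and 0.231 untreated (limma). Gch1 differed little between untreated arrays, at 2664.5 and 2501.7 in KO and 2814.8 and 2648.8 in WT.

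**Figure D4:**
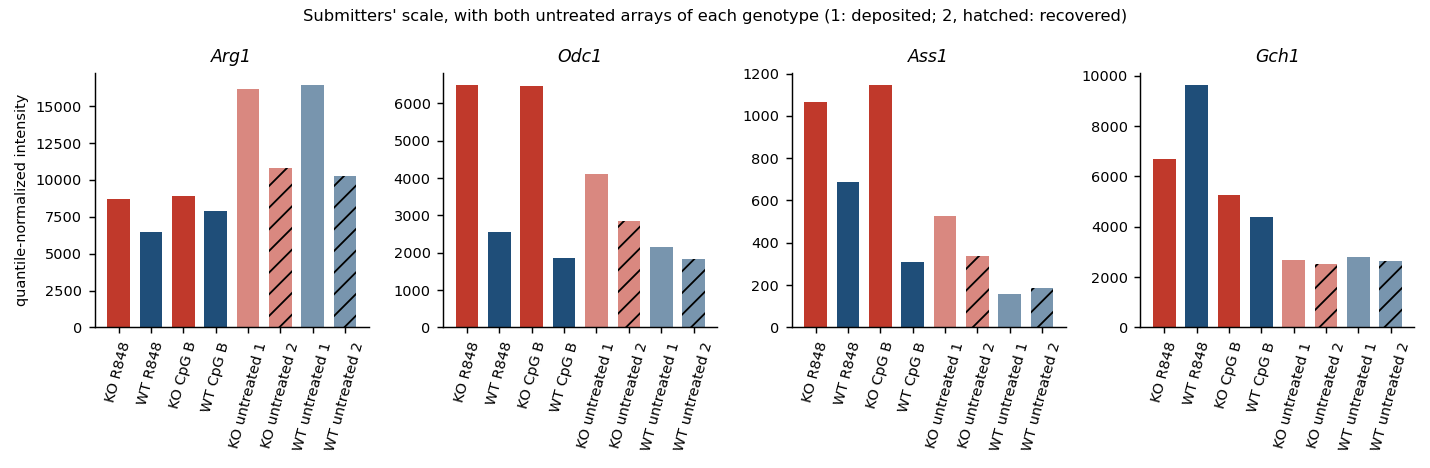
Quantile-normalized intensity on the submitters' scale (y axis, from 0) of Arg1, Odc1, Ass1 and Gch1 on 8 arrays, KO in red and WT in blue, with the untreated arrays paler and the recovered second untreated array hatched. The second untreated Arg1 bars lie between the stimulated and the first untreated bars, whereas the Gch1 untreated bars are nearly level.

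Other genes of these pathways were taken from lists of named genes. Of 5 tested arginine supply and urea cycle genes, 1 was called lower with R848 and none higher, where 17.3% of all tested genes were called lower. This was Glul, glutamine synthetase, at -0.98 ± 0.18 on the log2 scale (SE, limma adjusted p = 0.014), and the list's median was -0.41 beside -0.08 over all genes. Of 7 genes of nitric oxide synthesis and its cofactor, Ddah2, which degrades methylarginines that inhibit nitric oxide synthases, fell with R848 (-0.74, limma adjusted p = 0.0167) and with CpG B (-0.80, limma adjusted p = 0.0305). Over all tested genes, 17.3% were called lower with R848 and 3.99% with CpG B. Pts and Spr, which follow Gch1 in tetrahydrobiopterin synthesis, had R848 effects of -0.27 and -0.44 (limma adjusted p = 0.196 and 0.124).

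None of 8 tested polyamine genes other than Odc1 was called for R848, CpG B or genotype, and their median R848 effect was 0.00. Srm, spermidine synthase, had a KO minus WT difference of 0.13 on the log2 scale (limma adjusted p = 0.544), beside 1.38 for Odc1. Of 3 genes of proline metabolism, Pycrl, a pyrroline-5-carboxylate reductase, fell with R848 (-1.04 ± 0.13, SE, limma adjusted p = 0.00547), where 17.3% of all tested genes were called lower. Of 9 tested factors known to regulate Nos2, Arg1 or Odc1, 6 rose with R848 (Rela, Irf1, Hif1a, Cebpb, Stat3 and Batf) and Pparg fell, where 12.1% of all tested genes were called higher and 17.3% lower. With CpG B, where 4.7% were called higher, Irf1 (1.44), Cebpb (1.37) and Batf (2.94) rose (limma adjusted p = 0.0291, 0.00691 and 0.0171). None of the 9 was called between genotypes.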

How the data were processed

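Total RNA of 6 macrophage cultures, extracted with TRIZOL and amplified once into biotin-labelled cRNA per the labels' protocols, was measured on 1 array per group. The authors deposited background-subtracted probe intensity values with detection p-values, per the file headers. The submitters' processing notes name BeadStudio. A second deposited table holds their normalized intensity values. Its 4 stimulated columns matched the first table's arrays placed by rank on 1 common distribution within 0.5 units for at least 99.7% of probes. The 2 untreated columns matched the mean of 2 such arrays, and the second array was recovered from it (99.7% of its sorted values within 0.5 of that distribution, against 67.2% in KO and 66.6% in WT if means of 3 were assumed).

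Intensities were corrected and normalized with neqc (limma 3.58.1, R 4.3.3, offset 16). A gene was represented by its probe with the highest mean, and 7149 genes detected on at least 1 array were tested, with Benjamini-Hochberg adjustment over all of them. Of all probes, 23978 carried 1 gene symbol, 0 several and 1719 none. A fold is given as "at least" where the dimmer array was not detected, against the higher of its own value and the lowest detected signal there. The R848 and CpG B effects of the additive fit were checked on simulated data with a common spread for all genes. The other fits were not checked in this way. The recovery was checked on the mean of the WT R848 and KO CpG B arrays. The number of arrays limits precision. Samples were grouped by genotype and agent from the labels. Named genes are the 8 members, genes of fixed pathway and marker lists (those called, otherwise by role), and the 3 genes most alike each member. The members and lists were chosen with earlier results of these data known. Alternatives covered background correction, normalization, offset, filter, probes, arrays left out and the second untreated arrays.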

Additional observations from a re-analysis of the deposited data

Results flagged for a closer look

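The CpG B response of Odc1 had opposite signs in the 2 genotypes, at 0.65 in KO and -0.22 in WT (log2 difference of 1 array each). The planned test of the genotype difference in response did not call it (limma adjusted p = 0.9999). With the second untreated arrays the responses were 1.18 in KO and 0.02 in WT, on the submitters' scale.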

How the results depend on the processing

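Of the 8 members, R848 called 6. The count was 6 with each other background correction, scaling, offset or detection limit and on every named probe, and 5 with no filter, with the second untreated arrays or with 8 arrays. It was 0 to 6 with 1 array left out (2 to 2233 genes in all). CpG B called 621 genes and 2 members. This became 373 and 1 with the submitters' normalized values, 251 and 0 with no filter, 371 and 1 with the second untreated arrays and 1141 and 5 with 8 arrays, and 1 to 1290 genes and 0 to 5 members with 1 array left out. Genotype called 243 genes and 2 members. With no filter it called 140 genes and 0 members, with 8 arrays 397 genes, and with 1 array left out 9 to 279 genes and 0 to 2 members. It called 0 members with the submitters' values or the second untreated arrays, and 1 (Odc1) with floored intensities, median scaling, every named probe or the deposited untreated array on the submitters' scale. R848 minus CpG B called 0 genes. It called 1 with floored intensities, the submitters' values, the second untreated arrays or the deposited ones on that scale, 113 genes and 2 members with 8 arrays, and 0 to 522 genes and 0 to 5 members with 1 array left out. Of single-array counts, the 15 genes past 2-fold between R848 and CpG B in KO became 26 with floored intensities, 28 with the submitters' values and 7 with an offset of 50, the 1 member past 2-fold between untreated genotypes became 0 with the second arrays, and the 5 members past 2-fold with CpG B in KO became 3 with median scaling over all probes. With undetected arrays at the lowest detected signal, the members past 2-fold with CpG B became 3 in KO (5 as they stand) and 1 in WT (3 as they stand). Median scaling over all probes moved the median of all genes by up to -0.28. The planned median scaling used probes detected on all arrays, which was decided after the all-probe values were seen. The second untreated array alone and R848 minus CpG B within a genotype were also chosen after seeing the data. No called member reversed its sign under any of these settings. No paired analysis was possible because the labels carry no replicate numbers. Low signal over background limits Nos2, Slc7a2 and Arg2 in untreated cells to bounds. The causes of these changes were not tested.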

Other observations

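Genes commonly used as signs of alternative activation did not move as a group. Of 5 tested, Clec10a, a galactose-binding lectin, fell with R848 by 1.08 on the log2 scale (limma adjusted p = 0.00866) and Tgm2, a transglutaminase, rose by 1.41 (limma adjusted p = 0.012). Over all tested genes, 17.3% were called lower and 12.1% higher with R848. Mrc1, the mannose receptor, and Chil3, a chitinase-like protein, had R848 effects of -0.01 and 0.01 (limma adjusted p = 0.967 and 0.963). None of the 5 was called for CpG B or between genotypes, and their median R848 effect was -0.01, beside -0.08 over all genes.

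By the root mean square difference of centred log2 values over the 6 arrays, a description with no test, the genes most like Arg2 were Cd274 (0.06), Rasgrp1 (0.18) and Upp1 (0.25). Those most like Nos2 were Ptges (0.22), Lcn2 (0.29) and Eva1b (0.34), and those most like Gch1 were Stat2 (0.10), Zfp281 (0.12) and Rhbdf2 (0.12). Slc7a2 was closest to Thbs1 (0.22), Fabp3 (0.32) and Ccl17 (0.34), and Ass1 to Csrnp1 (0.11), Ext1 (0.17) and Clec4n (0.29). Arg1 was closest to Midn (0.06), Extl3 (0.08) and Luzp1 (0.09). Odc1 was closest to Atf4 (0.21), Erdr1 (0.23) and Cd74 (0.24), the last being the class II invariant chain called higher in KO. Asl was closest to Clock (0.05), Ube2c (0.06) and Zfp35 (0.06), over a range of 0.56 between its lowest and highest array. All these genes share the arrays, and each was picked from 5957 to 6178 candidates.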
